A study of Mus musculus with 4 samples.

Results

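Semaphorins, plexins and neuropilins were examined in developing mouse ovaries with and without overexpression of Sall1. The members were the genes of the count table whose symbols match the semaphorin names Sema3a to Sema7a, the plexin names of types A to D, or Nrp1 and Nrp2. This gave 31 of 34682 genes, namely 20 semaphorins, 9 plexins and 2 neuropilins. RNA was sequenced from 4 libraries of ovaries at embryonic day E13.5, 2 from mutant and 2 from wild-type embryos, with replicate numbers 1 and 2 in each genotype. The mutants carried a BAC, a large genomic insert, in which the coding sequence of Sall1 takes the place of Wt1 under the Wt1 promoter and regulatory elements, so the transgene is directed to the somatic cells of the gonad. It was integrated by piggyBac transposition into female embryonic stem cells, from which mice were made by morula aggregation. The study's methods derive these cells from C57BL/6J blastocysts, while its section on animals names C57BL/6J or a C57BL/6J-129 hybrid. The wild-type ovaries carried no transgene. They are called littermates in the study's results, CD1 in its methods and B6 in the names of their count columns, so strain and genotype cannot be told apart here. The names of both mutant count columns hold the tag MutSall1N2, which is not explained. The sources used here do not say which cell clone gave the sequenced embryos or whether embryos were pooled. The p-values therefore measure the spread between these libraries only.

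Semaphorins are extracellular cues that bind plexins, single-pass receptors whose intracellular part acts on small GTPases and, through them, on the cytoskeleton and on adhesion. Class 3 semaphorins are secreted and mostly need a neuropilin as the binding partner of a type A plexin, except Sema3e, which binds Plxnd1 directly. Classes 4, 5 and 6 are transmembrane proteins, of which class 4 is best known as ligands of type B plexins and class 6 of type A plexins. Sema7a is held in the membrane by a lipid anchor and binds Plxnc1 and integrins that contain the Itgb1 chain. The family is best known for guiding axons and growing vessels, and neuropilins also serve as co-receptors of VEGF.

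Total counts lay between 11036313 and 17869840 per library, with both mutant libraries below both wild-type libraries, and a count of 3 corresponded to between 0.170 and 0.272 CPM (counts scaled to library size with TMM factors). The mutants showed the Sall1 excess that their label requires, with counts of 1243 and 1445 against 279 and 223 in wild-type ovaries, while Wt1 differed by a log2 fold change of 0.03 (standard error 0.10). Wild-type replicate 1 stood apart in genes of skeletal muscle, whose 8 listed markers summed to 251 CPM there against 14.3 CPM in wild-type replicate 2 and 43.7 and 9.97 CPM in the mutants. The values of Plxnc1, Sema7a and Sema5a are therefore also given without that library. Of the 31 members, 2 had an exon overlap with a gene on the opposite strand of more than 2% of their own exon bases, Plxna1 with 10.7% and Plxnb1 with 2.35%, and the sources used here do not state whether strands were kept apart.

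The promoters of Plxnc1, Sema7a and Sema5a are shown because these are the members that DESeq2 called as described below. Each sequence is the 250 bases before the transcription start in RefSeq on GRCm38.p6, written on the strand of the gene. Capitals mark GGGCGG on either strand, the GC box bound by Sp1-type factors, with overlapping matches counted separately.
Plxnc1, chr10:94944846-94945095, minus strand: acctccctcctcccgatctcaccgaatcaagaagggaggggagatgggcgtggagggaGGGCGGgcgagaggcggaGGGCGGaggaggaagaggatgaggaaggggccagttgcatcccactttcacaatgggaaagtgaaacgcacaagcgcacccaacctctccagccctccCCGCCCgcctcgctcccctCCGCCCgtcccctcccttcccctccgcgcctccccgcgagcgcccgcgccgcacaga
Sema7a, chr9:57939862-57940111, plus strand: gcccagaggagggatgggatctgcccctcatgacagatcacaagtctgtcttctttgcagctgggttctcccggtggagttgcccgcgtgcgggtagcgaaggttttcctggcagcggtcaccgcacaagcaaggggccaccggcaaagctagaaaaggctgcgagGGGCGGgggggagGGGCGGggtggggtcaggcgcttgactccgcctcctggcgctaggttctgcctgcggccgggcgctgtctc
Sema5a, chr15:32244563-32244812, plus strand: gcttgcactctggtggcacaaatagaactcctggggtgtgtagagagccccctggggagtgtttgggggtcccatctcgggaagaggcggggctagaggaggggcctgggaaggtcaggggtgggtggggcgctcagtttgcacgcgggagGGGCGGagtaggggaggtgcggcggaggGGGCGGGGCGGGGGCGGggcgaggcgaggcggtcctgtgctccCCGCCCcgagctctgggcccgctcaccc
The promoters held 4 GC boxes in Plxnc1, 2 in Sema7a and 5 in Sema5a, and 68.8%, 66.4% and 72.0% of their bases were G or C, against a median of 52.4% over all promoters. RefSeq promoters were found for 26 of the 31 members, with 37 windows in all. GGGCGG stood in 27 of these 37 windows, and in 32.7% of all 32851 promoter windows of the same length. The palindrome AATATT, an A/T-rich hexamer of the kind bound by spalt-like zinc fingers, was in 0 of the windows of these 3 genes, in 1 of the 37 member windows (Sema6d), and in 6.17% of all windows. The windows compared were not matched for base composition. These shares therefore do not tell whether either motif is rare or frequent for promoters so rich in G and C.

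Nearly the whole family was measurable in the developing ovary. Counts were above 3 in every library for 30 of the 31 members, and 29 had a level above 1 RPKM in wild-type ovaries (CPM divided by the kilobases of the gene's merged exons). Receptors stood at the top. Plxnb2, a receptor of class 4 semaphorins, had the highest level, with 52.3 ± 2.55 RPKM (SD, n = 2) in wild-type ovaries. It was followed by Plxna1 with 29.1 ± 0.377 RPKM and by Plxnd1, a receptor prominent in vessels, with 29.1 ± 3.40 RPKM (SD, n = 2 each). Plxna1 and Plxnd1 did not differ beyond their spread.
Among the ligands, 5 genes shared a narrow range of levels in wild-type ovaries. Sema3f had 14.4 ± 1.49 RPKM, Sema4g 13.8 ± 0.495 RPKM and Sema5b 13.4 ± 0.980 RPKM (SD, n = 2 each). Sema6d had 13.3 ± 1.50 RPKM and Sema7a 12.3 ± 0.937 RPKM (SD, n = 2 each), so that the leading ligand of each of these classes lay within the spread of its neighbours in this order. Sema4c followed with 10.2 ± 0.436 RPKM (SD, n = 2). Nrp1 was the higher of the neuropilins, with 8.20 ± 0.0509 RPKM against 3.62 ± 0.0247 RPKM for Nrp2 (SD, n = 2 each). The lowest semaphorins were Sema3b with 0.965 ± 0.00777 RPKM and Sema3e with 1.06 ± 0.0238 RPKM (SD, n = 2 each). Plxnb3 had 5 and 0 counts in the mutant and 26 and 7 counts in the wild-type libraries. It did not pass the filter on low counts and was the 1 member left untested.

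**Figure D1:**
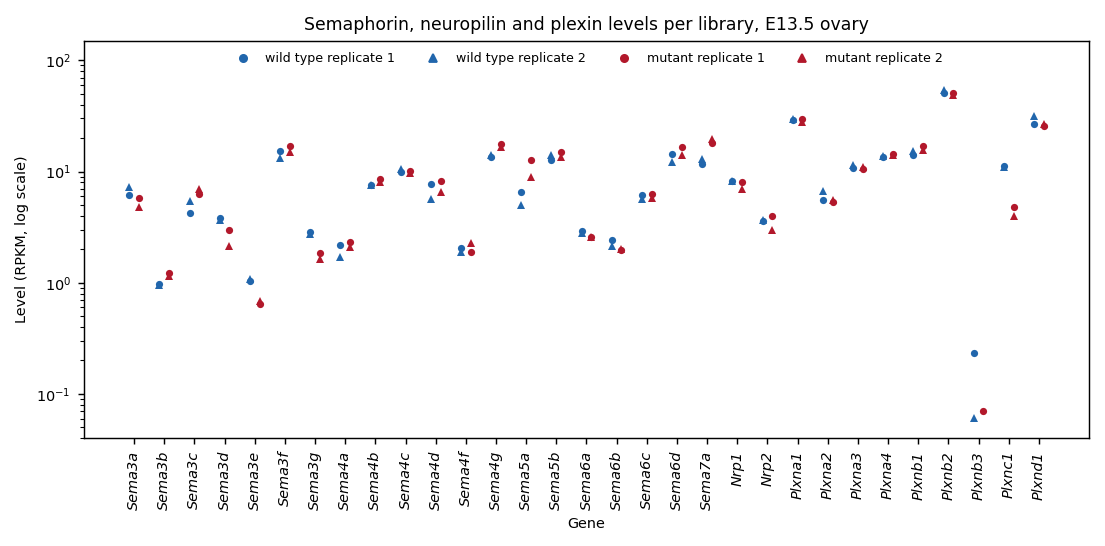
Level of each member in each library, in RPKM on a log scale, with wild-type libraries in blue and mutant libraries in red (circles, replicate 1; triangles, replicate 2). Plxnb2 lies highest, Plxnc1 is lower in both mutant libraries, and Plxnb3 lies below the rest, its value of 0 in mutant replicate 2 not being drawn.

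The comparison of mutant with wild-type ovaries asked which members differed in level between the 2 groups. Plxnc1 was the 1 of 30 members tested that fell at an adjusted p under 0.05 in edgeR's quasi-likelihood test, and 0.0453% of all 15442 genes tested did so. In the other direction 0 members passed, against 0.0130% of all genes. DESeq2, the tool named in the study's methods, called Plxnc1 lower (0.435% of the genes with an adjusted p) and 2 members higher, Sema7a and Sema5a (0.290%). At an unadjusted p under 0.05 in edgeR's test, 4 members were higher (Sema7a, Sema5a, Sema4g and Sema3c) and 5 were lower (Plxnc1, Sema3g, Sema3d, Sema3e and Sema3a), where 2.95% and 2.73% of all genes were higher and lower by that rule. The median log2 fold change of the 30 members was 0.0012 and that of all genes -0.00088. Above 0 lay 13 of 20 semaphorins, and below 0 lay 8 of 10 receptors tested. Of all 15442 genes, 7684 lay above and 7758 below. In edgeR's test 21 of the 30 members had an unadjusted p of 0.05 or more. Many of these signs therefore belong to changes within their error, and the counts do not show that ligands and receptors differed. The semaphorins summed to 1019 and 898 CPM in the mutants and 852 and 822 CPM in wild-type ovaries. The receptors, Plxnc1 among them, summed to 1438 and 1386 CPM against 1451 and 1550 CPM. Of the receptor sums, Plxnc1 alone held 34.1 and 28.1 CPM in the mutants and 79.6 and 77.5 CPM in wild-type ovaries. Of the semaphorin sums, Sema5a alone held 154 and 108 CPM in the mutants and 79.0 and 60.9 CPM in wild-type ovaries. The sums therefore do not show a change shared by the members of either group. Both mutant values exceeded both wild-type values for 8 members and were below both for 10, and this was so for 15.8% and 15.1% of all genes. In these whole ovaries fewer cells of a type and less RNA per cell cannot be told apart. Permuting the genotypes of 2 and 2 libraries exactly allows no p smaller than 0.333 for one gene. With the replicate number added to the edgeR fit as a block, 3 members were called higher (Sema7a, Sema5a and Sema3c) and 2 lower (Plxnc1 and Sema3d), against 1.17% and 1.33% of all genes.

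**Figure D2:**
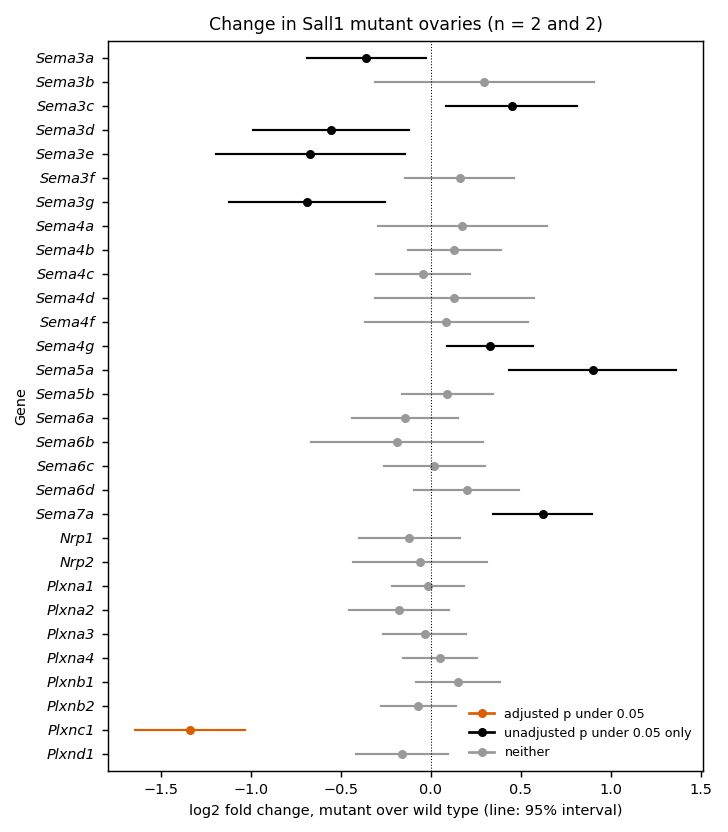
Log2 fold change of the 30 members tested, mutant over wild type, as a point with its 95% interval from edgeR. Plxnc1 (orange) passed after adjustment, the 8 members in black at an unadjusted p under 0.05 only, and the 21 in grey at neither.

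Plxnc1, the plexin C receptor, was lower in the mutant ovaries by 2.53-fold. The gene occupies chromosome 10, minus strand, from 94253617 to 94407212 (GENCODE M1, NCBIM37, the same assembly as mm9). Its reads numbered 376 and 423 in mutant and 1370 and 1368 in wild-type ovaries. In normalized units this was 34.1 and 28.1 CPM against 79.6 and 77.5 CPM, so the groups were far apart and the wild-type libraries nearly equal. The log2 fold change was -1.34 (standard error 0.13, 95% interval -1.65 to -1.03), with a Benjamini-Hochberg adjusted p of 0.0416 in the edgeR fit, and by p the gene ranked 7 among all genes tested. Per length, it went from 11.2 ± 0.212 RPKM in wild-type to 4.42 ± 0.603 RPKM in mutant ovaries (SD, n = 2 each). In wild-type ovaries Plxnc1 ranked 11 of the 31 members by level. Without wild-type replicate 1 the log2 fold change was -1.32 and the adjusted p 0.0810 in the same edgeR test, and without wild-type replicate 2 it was -1.35 with an adjusted p of 0.0718, so the call, though not the size, was lost in both cases.

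Sema7a, the ligand of Plxnc1, was 1.54-fold higher in the mutant ovaries. Its locus is on chromosome 9, plus strand, from 57787920 to 57810671 (NCBIM37). Its counts were 660 and 976 in mutant ovaries against 660 and 754 in the deeper wild-type libraries. After normalization the mutants had 59.9 and 64.9 CPM and the wild-type ovaries 38.4 and 42.7 CPM, without overlap. The log2 fold change was 0.62 (standard error 0.12, 95% interval 0.35 to 0.90). Its adjusted p was 0.243 in edgeR's test, 0.0307 in DESeq2 and 0.00252 in edgeR with the replicate block, so the call depended on the tool and on the model. When each library was left out in turn the log2 fold change stayed between 0.55 and 0.71, and the adjusted p lay between 0.0514 and 0.973 in edgeR's test, the lowest fold change and the highest p being those without wild-type replicate 1.
The ratio of Sema7a to Plxnc1 within a library does not depend on library scaling. Per kilobase of exon, Sema7a reads were 3.75 and 4.93 times those of Plxnc1 in the mutant libraries, against 1.03 and 1.18 times in the wild-type libraries. In wild-type ovaries ligand and receptor transcripts were thus close to parity per length, and in both mutant libraries the ligand was in excess. Itgb1, the chain shared by the integrins that bind Sema7a, had 508 ± 15.3 CPM in mutant and 518 ± 7.18 CPM in wild-type ovaries (SD, n = 2 each), a log2 fold change of -0.03 (adjusted p = 1.00, edgeR). Itga1, another integrin chain among the listed partners, had 11.4 and 13.9 CPM in mutant and 19.5 and 14.4 CPM in wild-type ovaries. Its log2 fold change was -0.42 (95% interval -0.90 to 0.067), so the value of Itgb1 does not show that these integrins were unchanged.

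**Figure D3:**
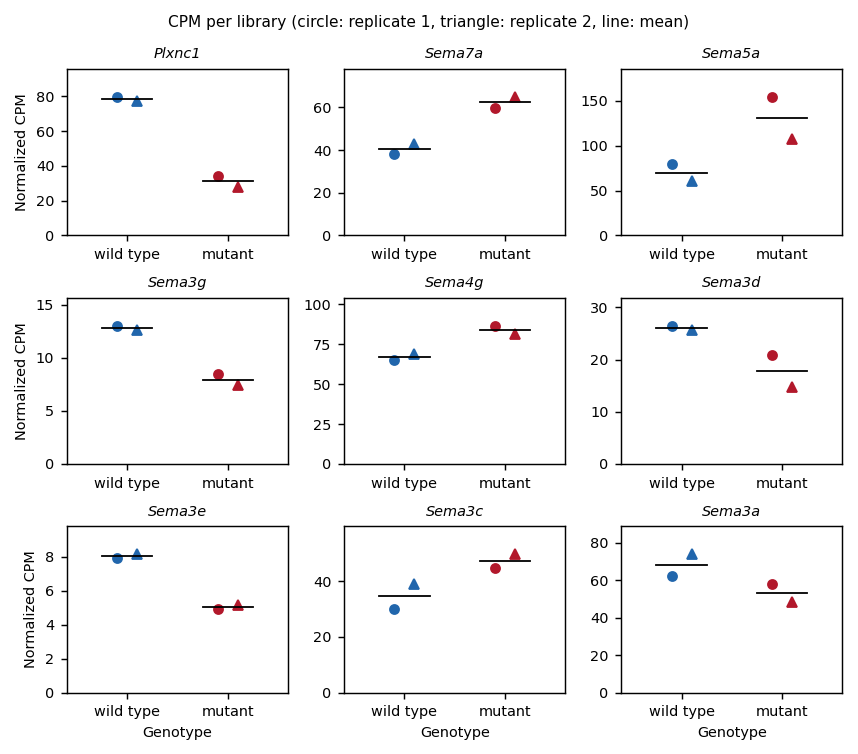
Normalized CPM per library of the 9 members with an unadjusted p under 0.05, ordered by p, wild type in blue and mutant in red, with a line at each group mean and each axis starting at 0. In all 9 genes the libraries of one genotype lie outside the range of the other, which the choice by p favours. Over all genes tested this was so for 15.8% (higher) and 15.1% (lower). Plxnc1 is at 39.6% of its wild-type mean in the mutants.

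Sema5a, a transmembrane semaphorin with thrombospondin repeats, had the highest log2 fold change of the members. Its counts were 1698 and 1618 in mutant against 1360 and 1074 in wild-type ovaries, or 154 and 108 CPM against 79.0 and 60.9 CPM. Both mutant libraries were above both wild-type libraries, but the mutant libraries also differed widely from each other. Replicate 1 was above replicate 2 in both genotypes. The log2 fold change of 0.90 (standard error 0.20, 95% interval 0.44 to 1.36) had an adjusted p of 0.319 in edgeR's test and 0.000789 in DESeq2. With the replicate block in edgeR it was 0.89, with an adjusted p of 3.12e-05. Without mutant replicate 2 it was 1.14 with an adjusted p of 0.0124 (edgeR), and over all libraries left out in turn it lay between 0.62 and 1.14. It did not pass in edgeR without mutant replicate 1 (adjusted p = 0.125), wild-type replicate 1 (log2 fold change 1.101, adjusted p = 0.278) or wild-type replicate 2 (adjusted p = 0.535). Sema5b, the other class 5 gene, had a log2 fold change of 0.09 (95% interval -0.16 to 0.35). Summed over both, class 5 transcripts were at 261 and 203 CPM in the mutant and 169 and 160 CPM in the wild-type libraries.

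The 7 class 3 semaphorins, the secreted ligands, pointed in both directions. Sema3g, Sema3e, Sema3d and Sema3a were lower in both mutant libraries than in both wild-type libraries, Sema3c and Sema3b were higher in both, and none of the 7 passed after adjustment in the edgeR fit without a replicate block (smallest adjusted p = 0.488). With the block Sema3c and Sema3d passed, at adjusted p-values of 0.0381 and 0.0462 in edgeR. Sema3g, a ligand that acts through Nrp2, had 8.44 and 7.44 CPM in the mutants against 13.0 and 12.6 CPM in wild-type ovaries, a log2 fold change of -0.69 (95% interval -1.12 to -0.26). Sema3e, the ligand of Plxnd1, rested on 54 and 78 counts in the mutant and 136 and 144 counts in the wild-type libraries. This was 4.90 and 5.18 CPM against 7.90 and 8.16 CPM, with a log2 fold change of -0.67 (95% interval -1.20 to -0.14). Both genes had low counts, but their libraries were close within each genotype. Sema3d had 20.9 and 14.8 CPM in the mutants and 26.5 and 25.6 CPM in wild-type ovaries, a log2 fold change of -0.56 (95% interval -0.99 to -0.12). Sema3a, the prototype of the repulsive axon cues, had 58.2 and 48.3 CPM against 62.5 and 73.9 CPM, and its log2 fold change was -0.36 (95% interval -0.69 to -0.027). For Sema3d and Sema3a the gap rested more on replicate 2 than on replicate 1. Sema3d was at -0.32 without mutant replicate 2, and Sema3a at -0.23 without mutant replicate 2 and -0.22 without wild-type replicate 2. With each library left out the ranges were -0.82 to -0.32 for Sema3d and -0.50 to -0.22 for Sema3a.
Sema3c had 44.6 and 49.7 CPM in the mutant and 30.1 and 39.1 CPM in the wild-type libraries, with a log2 fold change of 0.45 (95% interval 0.083 to 0.81). The wild-type libraries differed by more than the mutant ones, and its log2 fold change was 0.27 without wild-type replicate 1, the lowest of a range of 0.27 to 0.66 with each library left out. Sema3b, the lowest of the class by level, had 5.17 and 4.92 CPM in the mutants and 4.13 and 4.08 CPM in wild-type ovaries, and the 95% interval of its log2 fold change of 0.30 ran from -0.31 to 0.91. Sema3f, the class 3 gene with the highest level, had 59.5 and 52.3 CPM against 53.7 and 46.4 CPM, so that the groups overlapped. As a class, the secreted semaphorins summed to 202 and 183 CPM in the mutants and 198 and 210 CPM in wild-type ovaries, which also overlapped.

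The transmembrane classes 4 and 6 differed little. Of the 6 class 4 genes, 5 had a log2 fold change above 0 and none passed (smallest adjusted p = 0.604, edgeR). Sema4g, the highest of them by level, had 86.7 and 81.6 CPM in the mutants and 65.3 and 68.7 CPM in wild-type ovaries, a log2 fold change of 0.33 (95% interval 0.091 to 0.57). The class summed to 254 and 235 CPM in the mutant and 224 and 214 CPM in the wild-type libraries, the mutants being above. Sema4d, known from immune cells and as a ligand of Plxnb1, overlapped between the groups, with 52.9 and 41.8 CPM in mutants and 50.0 and 36.4 CPM in wild-type ovaries. The 4 class 6 genes had log2 fold changes between -0.19 and 0.20, and Sema6d, the highest of them, had 174 and 148 CPM against 151 and 129 CPM. Its interval of -0.093 to 0.49 leaves out neither 0 nor 0.45, the value of Sema3c.

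Apart from Plxnc1, the receptors were close to level. The other 7 plexins tested had log2 fold changes between -0.18 (Plxna2) and 0.15 (Plxnb1), with an adjusted p of 1.00 each in edgeR. Plxnb2 had 371 and 358 CPM in the mutants and 369 and 396 CPM in wild-type ovaries, and its 95% interval ran from -0.28 to 0.14 on the log2 scale. Plxna1 was the most tightly estimated member, its log2 fold change being -0.017 (standard error 0.085, 95% interval -0.22 to 0.18). For these genes a change as large as that of Plxnc1 lay outside the interval. Plxnd1 had 183 and 192 CPM in the mutants and 192 and 226 CPM in wild-type ovaries, a log2 fold change of -0.16 (95% interval -0.41 to 0.096). Nrp1, a partner of type A plexins and of VEGF receptors, had 47.7 and 41.5 CPM against 48.6 and 48.2 CPM, with a log2 fold change of -0.12 (95% interval -0.40 to 0.16). Nrp2 had 37.8 and 28.3 CPM in the mutants and 34.2 and 34.6 CPM in wild-type ovaries, so that the mutant libraries lay on either side of the wild-type ones. Over the 21 members with an unadjusted p of 0.05 or more, the log2 fold changes ranged from -0.19 to 0.30 and the bounds of their 95% intervals from -0.66 to 0.91.

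Within the pairs of libraries with the same replicate number, Plxnc1 was lower in both, with a log2 ratio of -1.22 in replicate 1 and -1.46 in replicate 2. Sema7a was higher in both by nearly the same amount, 0.64 and 0.60. Sema5a was at 0.96 and 0.82. Ligand and receptor thus lay on opposite sides of 0 in each pair. Among the class 3 genes, Sema3c was at 0.57 and 0.35, Sema3d at -0.34 and -0.79, Sema3e at -0.68 and -0.64, and Sema3g at -0.62 and -0.75. Sema3a was at -0.103 and -0.61, and Sema4g at 0.41 and 0.25. In all, 24 of the 30 members had the same sign in both pairs, 13 above 0 and 11 below 0, while 53.8% of all genes had the same sign. The share above 0 in both pairs was 26.5% of all genes and the share below 0 was 27.3%. The 6 members with opposite signs were Nrp2, Plxna1, Plxnb2, Sema4c, Sema4f and Sema5b, all with an absolute ratio below 0.3 in both pairs. The sources used here do not say that the number marks a common litter or day, although the count columns give same-numbered libraries adjacent library identifiers.

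**Figure D4:**
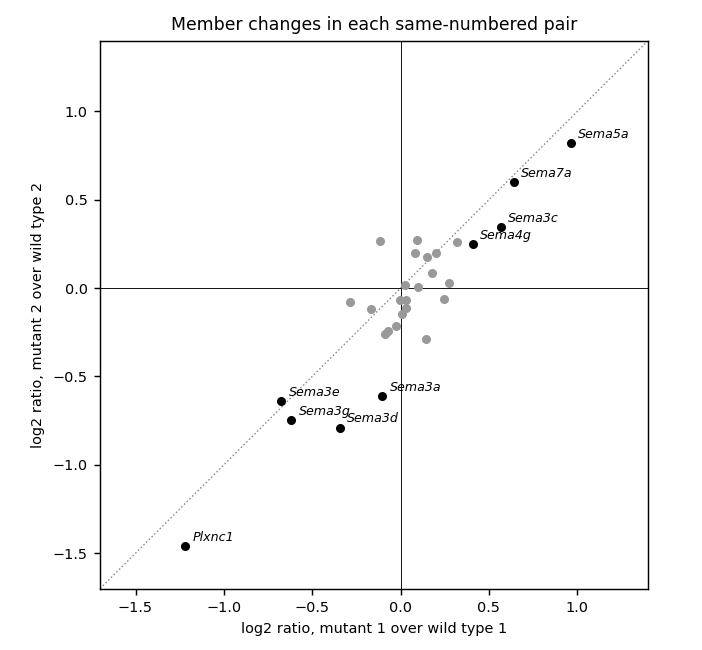
Log2 ratio of mutant over wild type in replicate 1 (horizontal) and replicate 2 (vertical) for the 30 members tested, with the 9 members at an unadjusted p under 0.05 named and the dotted line marking equal ratios. Plxnc1 lies far down at -1.22 and -1.46, and Sema5a and Sema7a lie at the upper right.

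Other genes of the pathway were read from lists of 33 intracellular mediators, 20 co-receptors and other partners, and 8 VEGF genes. Of these 61 genes 58 were tested, and 0 passed in either direction in edgeR's test, with 3 higher and 5 lower at an unadjusted p under 0.05, where 2.95% and 2.73% of all genes were so. DESeq2 called 2 of them lower, Mst1r and Rnd3 (0.435% of all genes), and 0 higher (0.290%). The replicate block in edgeR called 3 lower, these and Kdr (1.33%). Mst1r, a receptor tyrosine kinase of the Met family, whose extracellular part is related to that of plexins, had 12.2 and 9.84 CPM in the mutants and 21.6 and 23.2 CPM in wild-type ovaries. Its log2 fold change was -1.03 (standard error 0.17), and the adjusted p was 0.157 by edgeR and 0.00921 by DESeq2. Rnd3, a small GTPase of the Rnd group, members of which bind plexins, had 27.9 and 20.1 CPM against 45.9 and 37.3 CPM, which gave a log2 fold change of -0.80 (standard error 0.19) and an adjusted p of 0.372 by edgeR and 0.0362 by DESeq2. Kdr, the VEGF receptor that pairs with Nrp1, had 95.1 and 90.5 CPM in the mutants and 129 and 126 CPM in wild-type ovaries. Here the log2 fold change was -0.46 (standard error 0.090), and the adjusted p was 0.266 by edgeR and 0.0556 by DESeq2. The median log2 fold change was -0.0029 for the mediators, -0.049 for the partners and -0.17 for the VEGF genes, beside -0.00088 for all genes. The VEGF median differed in sign between the replicate pairs, at 0.040 in replicate 1 and -0.50 in replicate 2.

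Markers of stroma and surface epithelium were lower in the mutant ovaries alongside these members, and their part in the results was not tested. Of 10 stromal markers, which include Pdgfra and Tcf21, all 10 had a log2 fold change below 0, as had 7758 of all 15442 genes, their median was -0.51, and 6 were lower at an unadjusted p under 0.05 (2.73% of all genes). Their summed level was 459 and 360 CPM in the mutants and 617 and 578 CPM in wild-type ovaries, and none of them was at 0 counts. DESeq2 called 3 of them lower (0.435% of all genes). Of 8 surface epithelium markers, which include Upk3b and Aldh1a2, 7 were tested and all 7 lay below 0, with a median of -0.56. DESeq2 called 3 of them lower (0.435% of all genes). They summed to 323 and 255 CPM in the mutants and 450 and 487 CPM in wild-type ovaries. Without the block edgeR called 0 genes of both lists, and with it 6 stromal and 4 epithelial markers were called lower (1.33% of all genes).
The 13 endothelial markers summed to 503 and 483 CPM in the mutants and 495 and 532 CPM in wild-type ovaries, with a median log2 fold change of -0.15 and 0 at an unadjusted p under 0.05. The 10 germ cell markers summed to 1818 and 2036 CPM against 1892 and 1950 CPM, with a median of -0.023, and Dazl, which marks germ cells, was abundant at 683 ± 91.6 CPM in mutant and 713 ± 91.0 CPM in wild-type ovaries (SD, n = 2 each). The 10 pre-granulosa markers summed to 1130 and 1065 CPM in the mutants and 1000 and 1014 CPM in wild-type ovaries, with a median of 0.038. Of the 9 tested, 3 were higher and 1 was lower at an unadjusted p under 0.05 in edgeR's test (2.95% and 2.73% of all genes). DESeq2 called Lgr5 higher (log2 fold change 0.61, adjusted p = 0.00186) and Bmp2 lower (-0.80, adjusted p = 0.00893), where 0.290% and 0.435% of all genes were so called. Foxl2, a defining factor of these cells, was at 0.59 (adjusted p = 0.136 in DESeq2). With the replicate block edgeR called all 3 of these genes. The medians were 0.19 for 9 macrophage markers tested, -0.15 for 6 of neurons and glia, -0.086 for 8 of mural cells and -0.00024 for 7 of the mesonephros. Without the block 0 genes passed in edgeR in any of these lists. With it 1 mesonephric marker was called higher and 1 mural marker lower, against 1.17% and 1.33% of all genes. In the skeletal muscle list the median of -1.94 rested mostly on wild-type replicate 1. Its median was -2.04 in replicate pair 1 and -0.30 in replicate pair 2. The sums were higher in replicate 1 than in replicate 2 in the mutants too (43.7 and 9.97 CPM). With the block edgeR called 5 of its 8 markers lower (1.33% of all genes).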

How the data were processed

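RNA of 4 libraries of E13.5 mouse ovaries was analysed, 2 mutant and 2 wild-type. The authors aligned the reads with STAR 2.6.1d to mm9, per the labels, obtained read counts per gene from the R function summarizeOverlaps and deposited these raw counts for each library. Annotation and strand handling are not given in the sources used here. Every count column was matched to a library by the genotype and number in its name (0 unmatched).

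Counts were read into R 4.3.3. The filterByExpr function of edgeR 4.0.16 kept 15442 genes, which were scaled by TMM and tested for genotype alone by quasi-likelihood (Benjamini-Hochberg adjustment, threshold 0.05). The F statistic and fold change gave standard errors and 95% intervals. DESeq2 1.42.0 at its defaults gave the adjusted p of its own filter, for 14480 genes. Ratios within pairs are differences of log2 CPM (prior count 2). RPKM used the merged exons of GENCODE M1 (NCBIM37). Promoter sequences are from RefSeq (GRCm38.p6). The fits were checked on simulated counts that held no deviation shared by same-numbered libraries. That check therefore cannot tell whether a replicate block suits these data.

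The members and lists were chosen with earlier results of these data known. The rule named all members, the pathway genes called or else the 3 with the smallest p, and the leading markers. Of the listed genes, 1 (Vegfd) was matched by its older symbol. Intervals and the floor of 3 counts cover counting error and library spread only, and replicate libraries differed beyond sampling noise (chi-square per degree of freedom of 9.40 in mutant and 10.7 in wild-type libraries). Other normalizations and filters, a replicate block and leaving out each library were tried.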

Additional observations from a re-analysis of the deposited data

How the results depend on the processing

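The fall of Plxnc1 kept its sign and size under DESeq2, RLE and upper-quartile normalization, no filter, at least 10 counts in every library and the replicate block, with log2 fold changes from -1.35 to -1.34 and an adjusted p of at most 0.0364. With each library left out it ranged from -1.48 to -1.20, and the call was lost without either wild-type library; a group of 1 library is then assumed to vary like the other group. Sema7a ranged from 0.55 to 0.71 with each library left out. It passed with DESeq2 (0.62) and the replicate block (0.62), with adjusted p-values of 0.0307 and 0.00252.
The labels do not say what the numbers 1 and 2 mark, but same-numbered libraries have adjacent identifiers in the column names, and a block for the number lowered edgeR's common dispersion from 0.0210 to 0.00639. Deviations of same-numbered libraries from their group means had a correlation across genes of 0.481, and the replicate block moved the number of genes called from 9 to 385 and of members from 1 to 5, adding Sema3c (0.45), Sema3d (-0.57), Sema5a (0.89) and Sema7a. Members called higher, 0 in edgeR's test, were 2 with DESeq2, 3 with the replicate block and 0 to 1 with each library left out. Members called lower, 1 in edgeR's test, were 2 with the replicate block and 0 to 1 with each library left out. Pathway genes called lower, 0 in edgeR's test, were 2 with DESeq2, 3 with the replicate block and 0 to 2 with each library left out, and those called higher were 0 in every setting.
The median log2 fold change of the members ranged from -0.026 to 0.0014 under the other settings and from -0.048 to 0.016 with each library left out. With a library left out, 10 of 112 refits of the other 28 members changed sign, all near 0 and none called: Nrp2 (-0.28 to 0.14), Plxna1 (-0.054 to 0.016), Plxna3 (-0.084 to 0.028), Sema4c (-0.086 to 0.011), Sema4d (-0.071 to 0.38), Sema4f (-0.059 to 0.21) and Sema6c (-0.039 to 0.075). Members with the same sign in both pairs numbered 24 to 25 under 3 other settings, and the rank of Plxnc1 by level was 14 with the longest transcript as length. The cause of these changes was not tested.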
